A study of Homo sapiens with 32 samples.

Results

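FHIT and NOS3 are 2 human genes that each held a window of open chromatin, in an intron near a start, that lost much of its accessibility soon after the transcription factor ZNF143 was targeted for degradation. Their windows were taken by position: every window of the deposited count table whose centre lay in the GENCODE gene body or within 5000 bp of either end. This gave 79 of 212358 windows, 70 at FHIT and 9 at NOS3. The genes themselves were chosen because of the lost windows, in the same libraries and the same contrast. The differences between groups are therefore given below as a description, with standard errors. Calls of the whole-table fit are counted without reading anything from them, and p-values are printed only for the FHIT promoter window, whose call changed with the fit, and for neighbouring genes.

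Open chromatin was measured by ATAC-seq, in which the transposase Tn5 inserts sequencing adapters into accessible DNA, so that the count in a window follows how open it is. All libraries came from 1 clone, HEK_CloneZD29, of the embryonic kidney line HEK293T. The series gives this clone as carrying an inducible degron tag on ZNF143. The treated group had 50 nM dTAGV-1 for 30 minutes, a compound that brings a tagged protein to a ubiquitin ligase, and the control group had DMSO. Counts were analysed for replicates 9 to 16, with 8 libraries in each group. Replicates 1 to 8, of the same clone, enter only through a summit list without values for single libraries; their controls are titled DMSO but have no treatment in the treatment label. The labels of replicates 9 to 16 name the clone and not its tag, and their treatment protocol calls the controls untreated where the treatment label says DMSO. The labels do not say whether replicates came from separate cultures, so the spread between libraries may be technical. ZNF143 protein was not analysed here.

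FHIT encodes a hydrolase of diadenosine polyphosphates of the histidine triad family and is a tumour suppressor gene that spans a common fragile site. NOS3 encodes endothelial nitric oxide synthase, which makes the vasodilator nitric oxide from arginine. ZNF143 is a zinc finger activator that binds close to many promoters. Its longer known site has an upstream part, ACTACA, followed by a core.

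FHIT lay on the minus strand of chromosome 3 from 59747277 to 61251459 (hg38, positions counted from 1), a length of 1504183 bp with 7 annotated transcripts. NOS3 lay on the plus strand of chromosome 7 from 150991017 to 151014588, a length of 23572 bp with 10 transcripts. Windows had 1 fixed length and are numbered here along each gene in the direction of transcription. The lost window of FHIT, window 4, ran from 61249968 to 61250368. Its centre lay in intron 1 of the main (MANE) transcript, 1284 bp after that transcript's start at 61251452. Intron 1 there measured 50635 bp.

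The lost window of NOS3, window 3, ran from 150992722 to 150993122. It also lay in intron 1 of the main transcript, an intron of 2452 bp, with its centre 1905 bp after the start at 150991017. Relative to another annotated start, at 150993804, the centre lay at -882 bp. The RefSeq promoter table used here (GRCh38.p14), which is not complete, listed NOS3 starts at 150993782 and 150993804, and relative to these the window lay upstream. Whether it is called intronic or upstream thus depends on the transcript.

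The middle stretches of both lost windows are shown because they hold the sequences that resemble the longer ZNF143 site. They are written on the plus strand of hg38, 5′ to 3′, with the matches in capitals.
FHIT window 4, chr3:61250068-61250268: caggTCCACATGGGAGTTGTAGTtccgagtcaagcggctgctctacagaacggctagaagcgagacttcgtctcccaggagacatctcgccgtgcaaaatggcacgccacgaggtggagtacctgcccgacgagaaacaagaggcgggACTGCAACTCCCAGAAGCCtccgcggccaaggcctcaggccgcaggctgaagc
NOS3 window 3, chr7:150992822-150993022: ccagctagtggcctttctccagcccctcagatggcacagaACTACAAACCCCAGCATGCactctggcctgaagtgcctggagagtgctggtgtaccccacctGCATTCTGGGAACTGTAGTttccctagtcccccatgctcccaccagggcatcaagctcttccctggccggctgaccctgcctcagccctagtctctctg

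The pattern searched, on both strands of the whole window, was the longer ZNF143 site in 19 letters, of which 15 were fixed: ACTACA, then TCCCA after 2 free bases, then ATGC after 2 more. It was written down after these sequences had been seen, so its matches are a description. Each site is given on its own strand, with capitals where it has a fixed letter of the pattern.
NOS3 window 3, minus strand, chr7:150992924-150992942: ACTACAgtTCCCAgaATGC
NOS3 window 3, plus strand, chr7:150992862-150992880: ACTACAaacCCCAgcATGC
FHIT window 4, minus strand, chr3:61250072-61250090: ACTACAacTCCCAtgtgGa
FHIT window 4, plus strand, chr3:61250216-61250234: ACTgCAacTCCCAgaAgcC
FHIT window 1, plus strand, chr3:61251450-61251468: ACTgCAatTCCCAgaAgaC

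Both lost windows held a pair of such sites on opposite strands. The NOS3 pair had 0 mismatches and 1 mismatch and was 43 bp apart. The sites of the FHIT pair had 3 mismatches each and were 125 bp apart. In NOS3 the ATGC ends of the sites faced each other, whereas in FHIT they pointed away from each other. A pair of sites with up to 3 mismatches, counted on any strands and at any spacing without overlap, was present in 352 of the 185040 tested windows, or 0.19%. Among the 79 windows, only the lost windows held a pair.

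The site of the last line lay in FHIT window 1, at the main start of the gene, also with 3 mismatches. A single site with up to 3 mismatches was present in 4 of the 79 windows: FHIT windows 1, 4 and 25 and NOS3 window 3. Of all tested windows, 1.98% held one. Only NOS3 window 3 had a site with up to 2 mismatches, against 0.672% of tested windows.

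The shorter core, CCCA then any base then AATGC or CATGC, was searched within 100 bp of each centre on both strands. It was present in 2 of the 79 windows and in 0.594% of tested windows. NOS3 window 3 held it in both of its sites, as CCCAGCATGC and CCCAGAATGC. FHIT window 4 held no core, either exact or with 1 mismatch. FHIT window 2 did, as CCCAAAATGC on the plus strand (chr3:61250825-61250834), and its best match to the longer pattern over the whole window had 4 mismatches.

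**Figure D1:**
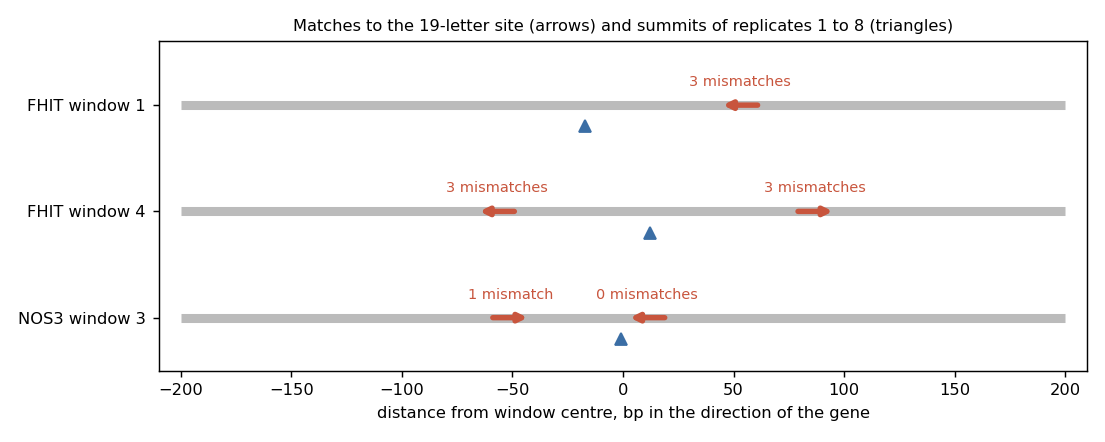
Map of 3 windows, drawn to scale, with the horizontal axis in bp from the window centre in the direction of the gene. Arrows mark matches to the 19-letter pattern with their mismatches, and triangles mark summits called in replicates 1 to 8; FHIT window 4 and NOS3 window 3 each show a pair of arrows on opposite strands.

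The summit list comes from libraries that had no part in choosing the genes. It placed a summit in 66 of the 79 windows, including both lost windows. The summit in NOS3 window 3 lay 1 bp before the window centre, between the 2 sites, and had a score of 141 on the -log10 scale in the authors' deposited table. In FHIT window 4 the summit lay 12 bp after the centre, again between the sites, with a score of 538 in the authors' deposited table. At the FHIT start, window 1 had a summit with a score of 1690 in the authors' deposited table. Both lost sites were thus open in replicates 1 to 8 as well, and the list holds no comparison of control and treated libraries.

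The libraries had 2275856 to 13671039 counts in windows. DMSO replicate 12 and dTAGV-1 replicates 11 and 12 were the shallowest and had a flatter signal. The 10% of windows strongest in DMSO held 31.8% to 41.7% of their counts, against 45.9% to 49.6% in the other 13 libraries. Levels below are CPM, the counts of a window relative to the library's total, with that total scaled by TMM. Where leaving out replicates 11 and 12 of both groups moved a value clearly, that value is given too.

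FHIT window 4 was the second strongest of the 70 FHIT windows in DMSO. It had 31.4, 44.9 and 48.6 CPM in the lowest, median and highest DMSO library. In dTAGV-1 it had 11.4, 16.8 and 18 CPM. The groups did not overlap: the highest dTAGV-1 library was well below the lowest control. The mean was 41.8 ± 6.47 CPM in DMSO and 16.2 ± 2.11 CPM in dTAGV-1 (SD, n = 8 each), so that 38.7% of the control level was left. The fitted log2 difference was -1.37 with a standard error of 0.14. These values rest on 84 to 497 counts per DMSO library and 55 to 202 per dTAGV-1 library.

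The 2 lowest DMSO values at FHIT window 4 belonged to replicates 11 and 12, with 32.9 and 31.4 CPM, and the lowest dTAGV-1 value to replicate 11. Without these replicates the DMSO libraries lay between 39.9 and 48.6 CPM and the dTAGV-1 libraries between 15.6 and 18 CPM. The share left was then 37.3%.

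NOS3 window 3 was weaker, with rank 4 of the 9 NOS3 windows in DMSO. Its lowest, median and highest DMSO libraries had 6.98, 8.98 and 11.8 CPM. In dTAGV-1 these were 0.944, 1.86 and 4.75 CPM. Again no library of one group reached the other. The mean fell from 8.91 ± 1.54 to 2.32 ± 1.22 CPM (SD, n = 8), which left 26.0%. The fitted log2 difference was -2.09 with a standard error of 0.19. Counts were low here, from 20 to 116 per DMSO library and from 10 to 27 per dTAGV-1 library.

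The 2 highest dTAGV-1 values at NOS3 window 3 came from replicates 11 and 12, with 4.75 and 3.29 CPM. Without these replicates the dTAGV-1 libraries had 0.944 to 2.67 CPM and the share left was 19.4%. Among the 395 windows called lower in the whole table, NOS3 window 3 ranked 2 by size of the fitted decrease and FHIT window 4 ranked 79.

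**Figure D2:**
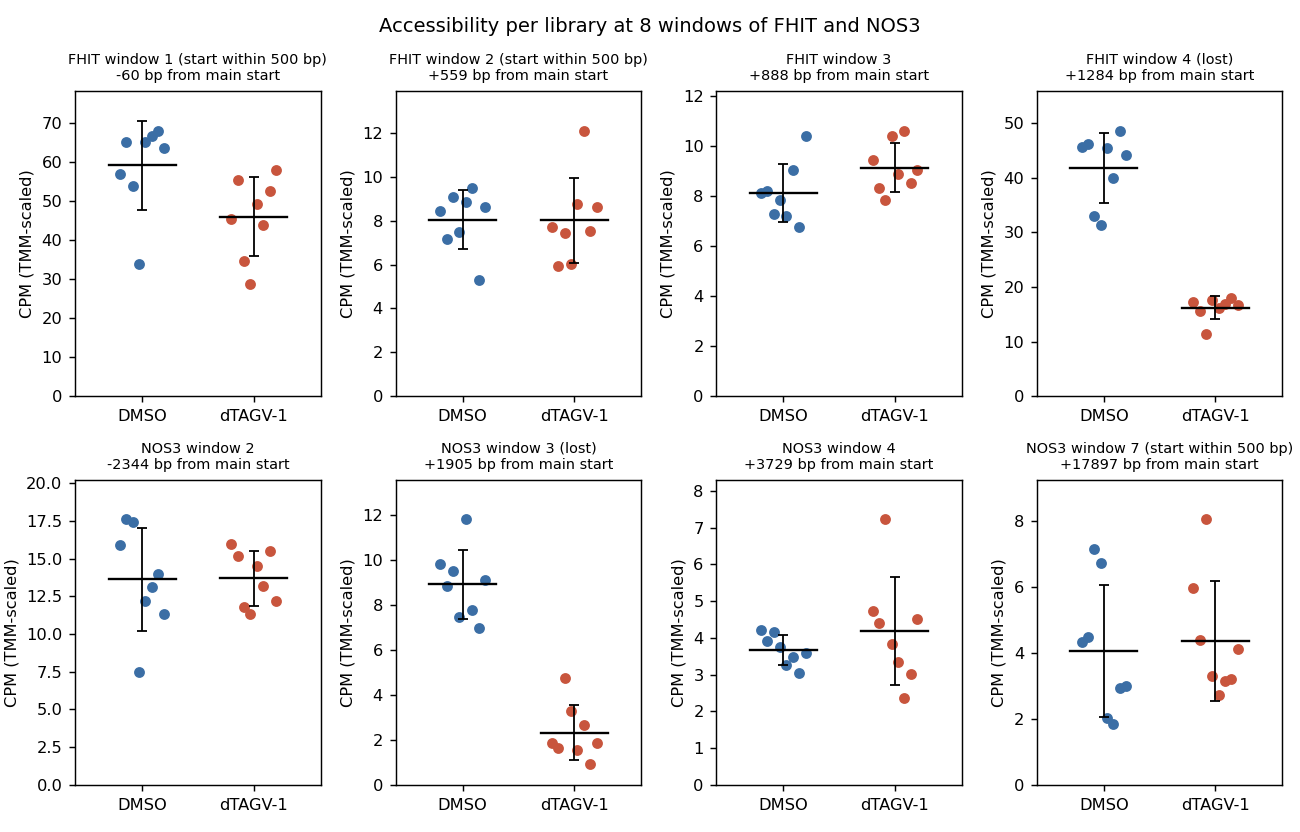
Accessibility in CPM (vertical axes from 0, each panel with its own scale) in DMSO and dTAGV-1 at 8 windows of FHIT and NOS3. Points are the 8 libraries of a group, bars their mean ± SD; in FHIT window 4 and NOS3 window 3 all dTAGV-1 points lie below all DMSO points, and in the other 6 panels the groups overlap.

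The FHIT promoter was compared next, since it lies close to the lost window. Window 1, from 61251312 to 61251712, had its centre 60 bp before the main start and was the strongest FHIT window. It had 33.7, 64.2 and 67.9 CPM in the lowest, median and highest DMSO library, and 28.6, 47.2 and 57.9 CPM in dTAGV-1. The groups overlapped: only 1 dTAGV-1 library lay below every control. DMSO replicate 12 was the lowest control with 33.7 CPM, and the other DMSO libraries had 53.8 CPM or more. The highest dTAGV-1 library, replicate 16, exceeded DMSO replicates 9, 11 and 12. The mean was 59.0 ± 11.3 CPM in DMSO and 45.9 ± 10.2 CPM in dTAGV-1 (SD, n = 8). The fitted log2 difference was -0.36 with a standard error of 0.16.

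This smaller difference did not pass the threshold of the whole-table fit (edgeR quasi-likelihood test, Benjamini-Hochberg adjusted p = 1.0). It passed in 2 of 22 alternative fits. Leaving out replicates 11 and 12 of both groups gave -0.34 (standard error 0.07, edgeR adjusted p = 0.000969). With the replicate number as a block the value was -0.37 (standard error 0.08, edgeR adjusted p = 0.00363). Without replicates 11 and 12, the DMSO libraries had 56.9 to 67.9 CPM and the dTAGV-1 libraries 43.8 to 57.9 CPM, and 5 of 6 dTAGV-1 libraries lay below every control. The p-values belong to the contrast that chose the gene and are given only because they cross the threshold.

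Set against this promoter window in the same library, FHIT window 4 had a median ratio of 0.707 in DMSO (range 0.599 to 0.933) and of 0.336 in dTAGV-1 (range 0.281 to 0.615). The log2 ratio was -0.48 ± 0.21 in DMSO and -1.48 ± 0.36 in dTAGV-1 (SD, n = 8). The intronic window was thus below the promoter window in all 16 libraries, and further below it in dTAGV-1. The ranges overlapped through dTAGV-1 replicate 12, which had the ratio of 0.615. Without replicates 11 and 12 the ratios were 0.599 to 0.804 in DMSO and 0.281 to 0.386 in dTAGV-1, and did not overlap.

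Between promoter and lost window lay 2 weak windows. Window 2, from 61250693 to 61251093, lay 559 bp after the main start and within 500 bp of an annotated start. It is the window with the exact ZNF143 core. Its DMSO libraries had 5.29 to 9.5 CPM with a median of 8.53, and its dTAGV-1 libraries 5.93 to 12.1 CPM with a median of 7.63. The log2 difference was 0.0099 with a standard error of 0.15, and the groups overlapped throughout.

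Window 3 ran from 61250364 to 61250764 and shared 5 bp with the lost window. It had 6.75 to 10.4 CPM in DMSO, with a median of 7.98, and 7.84 to 10.6 CPM in dTAGV-1, with a median of 8.95. The log2 difference was 0.16 with a standard error of 0.13. Window 3 was weak in both groups, and its groups overlapped. On its other side the nearest counted window, window 5, lay 8620 bp after the main start and had a log2 difference of 0.22 with a standard error of 0.28.

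NOS3 offered no such promoter window. No counted window had its centre within 500 bp of the main start or of the start at 150993804. The 1 NOS3 window near an annotated start was window 7, from 151008714 to 151009114, which lay 17897 bp into the gene and beside starts of shorter transcripts. It had 1.85, 3.66 and 7.14 CPM in the lowest, median and highest DMSO library and 2.72, 3.7 and 8.05 CPM in dTAGV-1. Its log2 difference was 0.16 with a standard error of 0.22. The highest values belonged to DMSO replicate 11 and dTAGV-1 replicate 11, and without replicates 11 and 12 the log2 difference was 0.31 with a standard error of 0.21.

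The neighbours of the lost NOS3 window were 1 window upstream of the gene and 1 in intron 2. Window 2, from 150988473 to 150988873 and at -2344 bp from the main start, had 7.48 to 17.6 CPM in DMSO and 11.3 to 16.0 CPM in dTAGV-1. Its medians were 13.5 and 13.9 CPM, and its log2 difference was -0.0018 with a standard error of 0.14. Window 4, from 150994546 to 150994946 and 942 bp after the start at 150993804, had 3.04 to 4.21 CPM in DMSO and 2.37 to 7.22 CPM in dTAGV-1. Its medians were 3.67 and 4.12 CPM, and its log2 difference was 0.14 with a standard error of 0.18. Without replicates 11 and 12 that of window 4 was 0.041 with a standard error of 0.19. Neither window held a match with up to 3 mismatches to the longer site.

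**Figure D3:**
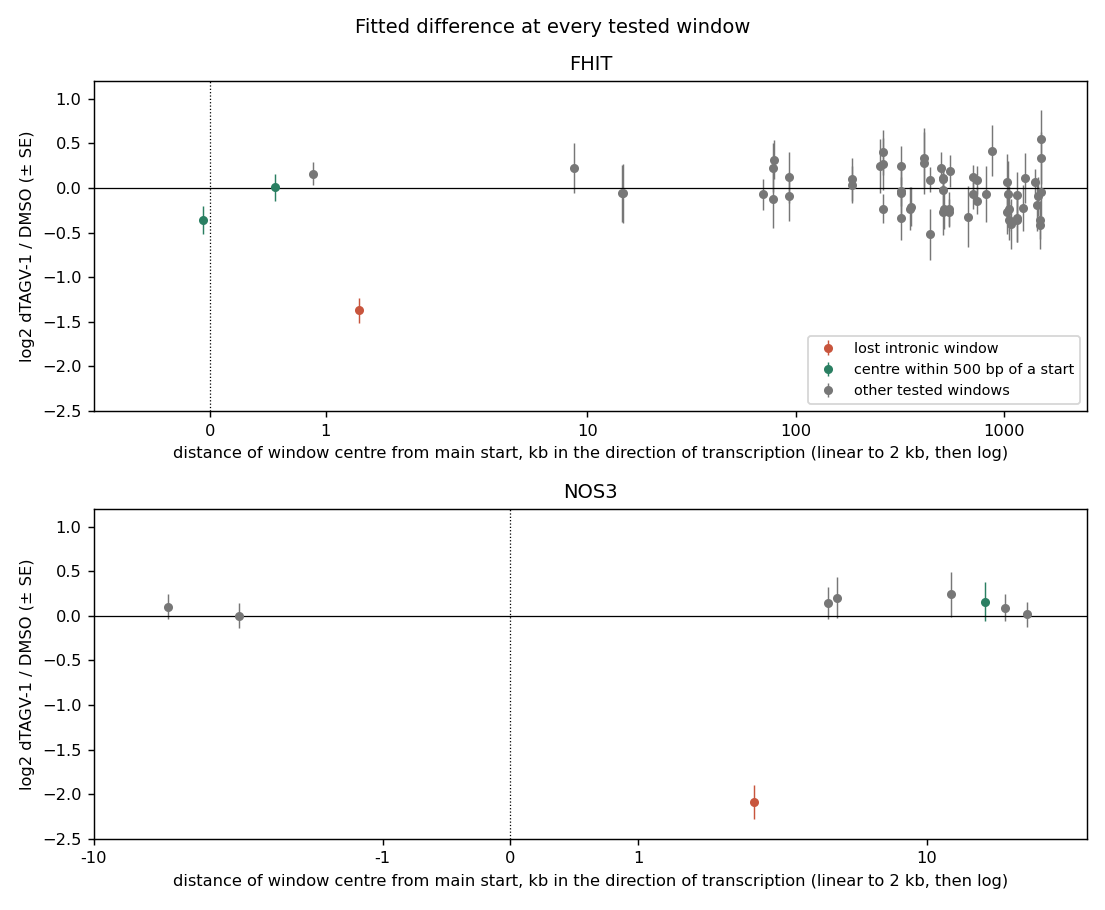
Fitted log2 difference of dTAGV-1 to DMSO (points, with bars of 1 standard error) at the 64 tested FHIT windows and 9 tested NOS3 windows, against distance from the main start in kb (linear to 2 kb, logarithmic beyond). FHIT window 4 at -1.37 and NOS3 window 3 at -2.09 stand below all the others, which lie between -0.52 and 0.55.

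The strongest windows deeper in each gene were described as well. In FHIT these were windows 31, 36 and 40, all in intron 4, 441449 to 542896 bp from the main start. Window 31 had a mean of 11.3 ± 2.61 CPM in DMSO and 12.2 ± 2.04 CPM in dTAGV-1 (SD, n = 8). Window 36 had 10.6 ± 1.76 and 11.4 ± 1.92 CPM, and window 40 had 8.44 ± 2.07 and 7.14 ± 1.28 CPM. Their log2 differences were 0.095, 0.097 and -0.27, each with a standard error of 0.14 to 0.15. Without replicates 11 and 12 that of window 40 was -0.39 with a standard error of 0.14. It held ACTACA, but its best match to the longer pattern had 6 mismatches.

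In NOS3 the strongest window was window 9, from 151018152 to 151018552, which lay in the downstream flank and within the neighbouring gene ATG9B. It had 23.2 ± 3.74 CPM in DMSO and 23.6 ± 3.57 CPM in dTAGV-1 (SD, n = 8). Window 8 in intron 24, also inside ATG9B, had 11.9 ± 2.36 and 12.7 ± 3.26 CPM. Window 1, in the upstream flank, had 8.52 ± 1.22 and 9.12 ± 2.02 CPM. Their log2 differences were 0.018, 0.09 and 0.1 with standard errors of 0.14 to 0.15.

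The remaining windows were weak. NOS3 windows 5 and 6 had log2 differences of 0.20 and 0.24 with standard errors of 0.23 and 0.25. Over all 70 FHIT windows the mean DMSO level ranged from 0.335 to 59.0 CPM with a median of 2.2 CPM, and 68 of them had their centre in an intron. Over the 9 NOS3 windows it ranged from 2.15 to 23.2 CPM. Of the 79 windows, 73 passed the filter on low counts. The 6 that did not were all in FHIT, with 11 to 86 counts summed over the 8 libraries of a group. The table as a whole had a median DMSO level of 2.21 CPM.

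Apart from the lost windows, 71 windows were tested. Their log2 differences lay between -0.52 and 0.55 with a median of -0.026, and 37 were negative. The median over all tested windows of the table was 0.0077, with 48.2% negative. In 70 of these 71 windows the difference was within 2 standard errors of 0, and the exception was FHIT window 1. The values nearest the lower end came from FHIT window 30, which had 2.2 ± 1.01 CPM in DMSO and 1.51 ± 0.707 CPM in dTAGV-1 (SD, n = 8). Window 30 held ACTACA and a core with 1 mismatch, but its best match to the longer pattern had 6 mismatches.

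By the rule of the whole-table fit, 2 of the 73 tested windows were called lower, the lost ones, and none was called higher. Of all tested windows 0.213% were called lower and 0.00108% higher. In these 2 windows the groups did not overlap, an arrangement found in 0.0713% of tested windows. Since the genes were chosen for these windows, nothing is read from these counts.

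FHIT window 25, in intron 3, was the other window with a match of 3 mismatches. It had 4.5 ± 0.578 CPM in DMSO and 4.29 ± 0.576 CPM in dTAGV-1 (SD, n = 8), with a log2 difference of -0.036 and a standard error of 0.16. ACTACA alone, searched around the centre like the core, was present in 8 of the 79 windows and in 8.72% of tested windows. Both lost windows held it, as did 6 other FHIT windows, none of them called.

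Other motifs were searched in the same way. CCAAT was present in 20 of the 79 windows, all in FHIT, and in 22.4% of tested windows. TGANTCA was present in 11, against 7.98% of tested windows. GGGCGG was present in 4, against 16.9%, and CCGGAAGT in 0, against 0.766%. Neither lost window held any of these 4 motifs. FHIT window 1 held all of them but the ETS-type motif CCGGAAGT. GC content was 56.6% in FHIT window 4 and 58.6% in NOS3 window 3, against a median of 48.1% over tested windows. The median was 43.0% over the FHIT windows and 61.8% over the NOS3 windows. FHIT window 1 had 57.9%, so a GC content above the table median was not particular to the lost windows.

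As a description, tested windows were grouped by their best match to the 19-letter pattern, which was written down after the lost windows had been seen. The calls come from the contrast that chose the genes and include the lost windows themselves. Of the 105 windows with 0 mismatches, as in NOS3 window 3, 33 were called lower, or 31.4%. With 3 mismatches, as in FHIT windows 1, 4 and 25, 71 of 2416 were called lower, or 2.94%. With 5 mismatches the share was 0.00831%. A pair of matches with up to 3 mismatches, on any strands and as held by both lost windows, was present in 133 of the 395 windows called lower, or 33.7%.

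**Figure D4:**
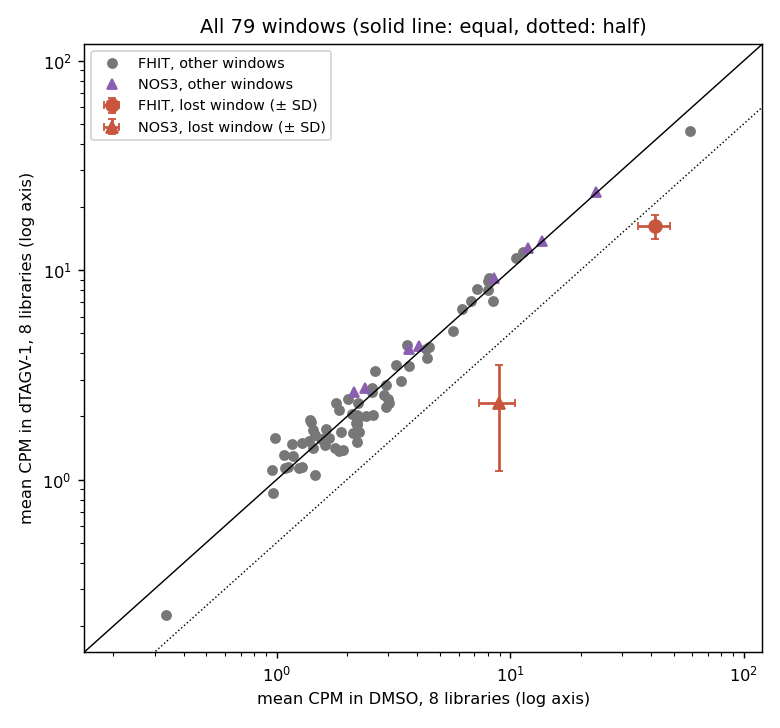
Mean CPM in DMSO (horizontal) and in dTAGV-1 (vertical) of all 79 windows, 8 libraries per group, both axes logarithmic; the solid line marks equal levels and the dotted line a level lower by 50 percent. FHIT window 4 (41.8 and 16.2 CPM) and NOS3 window 3 (8.91 and 2.32 CPM), drawn with SD, lie below the dotted line, and the strongest window, FHIT window 1, lies between the lines.

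The windows outside these genes that varied most like the lost ones were then listed, by Pearson's r of log2 CPM over the 16 libraries. All r values include the difference between groups and are a description. For FHIT window 4 these were windows nearest the starts of HSP90B1 (r = 0.97), PRCC (r = 0.967) and FIS1 (r = 0.964), at 75 to 354 bp. HSP90B1 encodes a chaperone of the endoplasmic reticulum, and FIS1 a protein of mitochondrial fission. Their log2 differences were -1.07, -1.23 and -0.82. For NOS3 window 3 the nearest coding starts were those of GRIN2D (r = 0.931, 25761 bp away), TFAP4 (r = 0.928, 901 bp) and IZUMO1 (r = 0.925, 367 bp), with log2 differences of -1.22, -0.94 and -1.07. These 6 windows held a match to the longer site with 0 to 3 mismatches. Such a match was held by 91.1% of windows called lower and by 1.98% of tested windows. Since the r values include the group difference, windows with a lower level were favoured, and nothing is read from these matches.

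The other genes of each pathway were read from their promoter windows, with centres within 500 bp of a start. Of all tested promoter windows, 214 of 38119 were called lower. In the histidine triad and diadenosine polyphosphate list of 8 genes, 0 of 19 tested windows were called, and the log2 differences ranged from -0.36, at FHIT itself, to 0.16, with a median of 0.0074. The strongest window of HINT1, a purine phosphoramidase, had 27.6 ± 5.31 CPM in DMSO and 29.4 CPM in dTAGV-1. That of NUDT2, which also hydrolyses diadenosine polyphosphates, had 71.7 ± 14.5 and 70.8 CPM (SD, n = 8).

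In the nitric oxide list, 27 of 29 genes had a tested window, and 0 of 85 windows were called in either direction. The median log2 difference was 0.0062 and the range -0.64, at a PDE5A window, to 0.38, at an AKT1 window. NOS2, the inducible synthase, had 5.57 ± 2.01 CPM in DMSO and 6.04 CPM in dTAGV-1 at its strongest window. GCH1, which starts synthesis of the cofactor tetrahydrobiopterin, had 16.1 ± 3.65 and 15.9 CPM. GUCY1B1, a subunit of the nitric oxide receptor, had 47.6 ± 14.5 and 46.3 CPM (SD, n = 8).

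Neighbouring promoters were read in the same way, and a link between their levels and the lost windows was not tested. On the start side of FHIT, 0 of 7 tested windows of PTPRG, FEZF2, SYNPR and C3orf14 were called. The strongest windows of these genes lay 310 to 2100 kb from the main FHIT start. None of these genes lay past the 3′ end of FHIT, so that side was not looked at. Against 214 of 38119 tested promoter windows called lower in the whole table, 1 of 23 was called lower around NOS3. This window, from 151057834 to 151058234 and shared by the starts of CDK5 and SLC4A2, lay 67.0 kb from the main NOS3 start. It had 115.0 ± 24.9 CPM in DMSO and 68.8 CPM in dTAGV-1, a log2 difference of -0.74 with a standard error of 0.16 (edgeR adjusted p = 0.0171), and its best match to the longer site had 2 mismatches. TMUB1, 92.5 kb away, had 16.3 ± 4.32 CPM in DMSO and 11.2 CPM in dTAGV-1, a log2 difference of -0.54 with a standard error of 0.15 that did not pass (edgeR adjusted p = 0.229), and a site with 1 mismatch. For ATG9B, the gene that overlaps the 3′ part of NOS3, the 1 window near an annotated start was NOS3 window 8, already described above. Its log2 difference was 0.09 with a standard error of 0.15, and whether it lies at the main start of ATG9B was not examined. The strongest promoter window of ABCB8 had a log2 difference of 0.02 with a standard error of 0.16, and its other window one of -0.45, which was not called.

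Marker promoters were checked against the labelled cell type. Among genes listed for HEK293T, PAX2, NEFM and NEFL had tested promoter windows, with 8.08 to 11.4 CPM in DMSO at the strongest one, and the LHX1 window was not tested. Of 8 endothelial genes, listed because NOS3 is known from endothelium, PECAM1, VWF and TIE1 had no counted promoter window. KDR had 12.7 ± 2.6 CPM (SD, n = 8), and CDH5, TEK, ERG and EMCN had 1.33 to 1.68 CPM. The liver genes ALB and APOA2 and the blood genes PTPRC and CD3E had no counted promoter window. An open promoter does not show that the gene is expressed.

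At the edges of the chosen stretch, set at 5000 bp from each gene, the last NOS3 window inside, upstream of the gene, was 4784 bp from its end and thus close to the limit, and the next one outside was 11805 bp away with 11.5 CPM in both groups. Downstream these distances were 3764 and 13740 bp. Beyond the FHIT start the next window lay 29990 bp away.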

How the data were processed

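Per the submitters' processing notes, cutadapt 1.8.1, Bowtie2 2.4.4, SAMtools 1.9 and the build hg38 were used. The peak caller, the read filters, the counting tool and any Tn5 shift are not given in the sources used here. The deposited table holds raw counts per window of 401 bp for 16 libraries, and 0 columns were left unused. It also holds 1 -log10 q value per window, and the deposited summit list 1 -log10 score per summit. The build was checked: 59.1% of the windows in the top 10% of q lay within 500 bp of a GENCODE 44 start, and 6.72% after a shift of 100000 bp.

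Counts of all windows were fitted in edgeR 4.0.16 (R 4.3.3) with filterByExpr, TMM and the quasi-likelihood test, with no covariate, and Benjamini-Hochberg adjustment over 185040 tested windows at 0.05. Log2 CPM used a prior count of 2. The fit and the motif search were tested on simulated data. Between libraries of a group, chi-square per degree of freedom was 1.63 to 5.01 over 56 pairs, so none was a duplicate. DESeq2 1.42.0 was an alternative. Windows given in full were the lost window, promoter windows, the windows on either side of the lost one and the 5 strongest of each gene. Window 30 and window 25 of FHIT were named after their values were seen. FHIT, NOS3, the gene lists and the marker lists were chosen with earlier results of these data known. Sequences came from hg38, and annotation from GENCODE 44 and RefSeq. Some marker genes are not reported here.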

Additional observations from a re-analysis of the deposited data

Results flagged for a closer look

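Of 30 groups of 8 libraries at the 15 windows given in full, 3 held a library far from the other 7, where chance gives about 1 in 20. At FHIT window 1, the promoter, DMSO replicate 12 had 5.08 log2 CPM, against 5.76 to 6.09 in the other DMSO libraries. At FHIT window 4, the lost window, dTAGV-1 replicate 11 had 3.54 log2 CPM, against 3.98 to 4.19. At NOS3 window 1, upstream of the gene, dTAGV-1 replicate 12 had 2.45 log2 CPM, against 3.01 to 3.51. All 3 libraries were among the shallowest of the 16, with 31.8% to 41.7% of their counts in the strongest 10% of windows, and the part of this in the low values was not tested.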

How the results depend on the processing

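At the 15 windows given in full, 22 alternative fits were run, and in none did the log2 difference move by more than the larger group SD in log2 CPM. Most of these fits left out 1 library, which can move a group mean only a little, so they are a weak check. Without replicates 11 and 12, NOS3 window 3 moved from -2.09 to -2.38. This was more than its DMSO SD of 0.24 and less than its dTAGV-1 SD of 0.64. FHIT window 4 stayed between -1.43 and -1.32 and NOS3 window 3 between -2.38 and -1.95, and both were called in all 22. With single libraries left out, they ranged from -1.42 to -1.32 and from -2.27 to -1.95. FHIT window 1 ranged from -0.44 to -0.29 and was called in 2 fits, which brought the called windows of these genes from 2 to 3.

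Of all tested windows, 397 were called. This became 753 with the replicate block, 781 without replicates 11 and 12, and 321 to 632 with single libraries left out, where 632 was without DMSO replicate 12. Same-numbered libraries correlated in their deviations from the group means at 0.0276 to 0.336, not over 0.1 in every pair. DMSO replicates 10, 11, 12, 14 and 15 correlated best with the dTAGV-1 library of the same number, and replicates 9, 13 and 16 with another. No label says that a number marks a shared culture or day, so the main fit had no block. Shared structure between same-numbered libraries thus remains possible. The ZNF143 core was held by 2 of the 79 windows, against 0.594% of tested windows. With 1 mismatch allowed it was held by 11, against 11.5% of tested windows, and FHIT window 4 was not among the 11. The 19-letter site with up to 3 mismatches, added after the data were seen, was held by 4, against 1.98%. Promoter windows numbered 3, and 7 with a distance of 1000 bp. Weak windows, with a median near 2 CPM, limit what could be detected.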
